A study of Mus musculus with 6 samples.

Results

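Autophagy and mitophagy genes were followed in mouse fetal liver that lacks the microRNAs miR-144 and miR-451. The set holds 41 genes of the 34542 listed in the deposited gene table, chosen by symbol for their role in building the autophagosome, choosing its cargo, removing mitochondria, or forming the lysosome membrane. RNA was taken from fetal liver of C57BL/6J embryos, 3 wild-type libraries (WT, replicates 1 to 3) and 3 from embryos of genotype miR-144/451-/- (KO, replicates 4 to 6). Every preparation started from an equal number of fetal liver cells and was enriched for polyadenylated RNA before sequencing on a HiSeq2000. The labels do not give the embryos' age or sex, or whether a library is 1 embryo or a pool. The p-values below therefore weigh the difference of KO and WT only against the spread between these libraries.

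Autophagy wraps cytoplasm or whole organelles in a double membrane that fuses with lysosomes. A kinase complex starts the process, a lipid kinase marks the membrane, and linked conjugation chains attach proteins of the ATG8 family to it, where cargo receptors dock. Before birth most red cells form in the fetal liver, and maturing erythroid cells clear their mitochondria by mitophagy, for which the outer mitochondrial membrane protein BNIP3L (NIX) is best known. The transcription factor GATA1 drives the miR-144/451 locus in these cells, and FOXO3 and GATA1 are both known to switch on autophagy genes there.

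The sequences below are the 3 mature microRNAs of the deleted locus, shown because their seeds set which members could be direct targets. They are from RefSeq (GRCm38.p6), written 5′ to 3′, with the seed (bases 2 to 8) in capitals. They lie on the plus strand of chromosome 11 at chr11:78073186-78073207 (miR-451a), chr11:78073047-78073066 (miR-144-3p) and chr11:78073010-78073032 (miR-144-5p). No 2 of the 3 share a seed.
miR-451a: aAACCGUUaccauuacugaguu
miR-144-3p: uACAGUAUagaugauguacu
miR-144-5p: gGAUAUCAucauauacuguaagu

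Matches to the seeds were searched on the sense strand of 1 3′ untranslated region (UTR) per gene, the longest among its coding transcripts in GENCODE M21 (GRCm38). The words searched were AACGGTT for miR-451a, ATACTGT for miR-144-3p and TGATATC for miR-144-5p. A match followed by an A was called an 8mer, any other a 7mer-m8. The words do not overlap each other in these members. A miR-451a match was found in 2 of 41 members (4.88%), Gabarapl1 and Ulk2, beside 2.03% of the 11995 tested genes with a UTR. For miR-144-3p 5 members held a match (12.2%, beside 13.1% of tested genes), and for miR-144-5p 3 members did (7.32%, beside 5.91%). Of the 10 members with a match, 4 are shown, both with a miR-451a match and both with an 8mer to miR-144-5p, with 8 bases on each side and the match in capitals. They lie at chr6:129541773-129541796 (Gabarapl1, plus strand), chr11:61775730-61775752 (Ulk2, minus strand), chr10:44364229-44364252 (Atg5, plus strand) and chr8:111953027-111953050 (Gabarapl2, plus strand).
Gabarapl1, miR-451a 8mer: cgtgcgggAACGGTTAtgattgcc
Ulk2, miR-451a 7mer-m8: tagtgagtAACGGTTctgatata
Atg5, miR-144-5p 8mer: ctaaaagaTGATATCAtaaaataa
Gabarapl2, miR-144-5p 8mer: gtgctggtTGATATCAaaagggga

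Libraries summed to between 24659978 and 44700229 gene counts, and members had from 68 counts (Atg10) to 23499 counts (Bnip3l) in a library, with 0 members at 0. The deleted locus was checked first. WT replicates 1 to 3 had 323, 446 and 418 counts for Mir451, and KO replicates 4 to 6 had 3, 2 and 4. For Mir144 the counts were 51, 47 and 29 in WT, beside 1, 1 and 0 in KO. Hepatocyte markers (20 genes, among them Alb and Afp) had a mean log2 level of 7.93, 9.93 and 7.17 in WT and 7.73, 8.43 and 9.56 in KO, so WT replicate 2 and KO replicate 6 stood apart. Erythroid markers (14 genes) were abundant in every library, with a mean log2 level of 10.23 to 10.67 in WT and 9.97 to 10.15 in KO, ranges that do not overlap. Of the 14, 2 fell in KO (Tfrc and Epb4.2) and 0 rose by the test described below, beside 1.45% and 1.83% of all tested genes. In bulk tissue, fewer cells of a type and less RNA per cell cannot be told apart. Markers of macrophages, neutrophils, mast cells and basophils, megakaryocytes and endothelial cells were detected too, with 0 of them called. Their median log2 changes, KO against WT, were -0.15, -0.60, -0.49, -0.01 and 0.12 in that order. Of the 10 mast cell and basophil markers, 8 could be tested.

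No member passed the test. Levels are given as CPM, counts relative to a library size scaled by trimmed mean of M values (TMM). Changes are log2, KO against WT, from edgeR's quasi-likelihood test on the counts of all 15105 genes that passed a filter on low counts, and a gene was called at a Benjamini-Hochberg adjusted p under 0.05. All 41 members passed the filter, and 0 were called higher and 0 lower, where 1.83% of all tested genes were called higher and 1.45% lower. Before adjustment, 5 members had a p under 0.05 and were higher (12.2%, beside 7.77% of all tested genes) and 3 were lower (7.32%, beside 8.78%). Without WT replicate 2 these counts were 6 higher and 10 lower, and without WT replicate 2 and KO replicate 6 they were 7 higher and 6 lower. The share of all tested genes at that unadjusted p was not counted in those fits. After adjustment, 3.16% of all tested genes were called higher and 6.61% lower without WT replicate 2, against 1.83% and 1.45% with all libraries. With all libraries the members' median change was 0.07, with 22 members above 0 and 19 below, against a median of -0.03 and 44.8% above 0 over all tested genes. The members' median was -0.01 without WT replicate 3 and -0.02 without KO replicate 5. In 9 members every KO library was above every WT library (22.0%, beside 11.8% of all tested genes), and in 3 every KO library was below (7.32%, beside 10.9%). With DESeq2 in place of edgeR, 3 members were called higher (Gabarapl1, Atg2a and Pik3r4) and 2 lower (Atg4d and Atg12), where that tool called 4.39% and 4.27% of all tested genes. With limma-voom 0 members were called, where it called 1.79% higher and 1.45% lower.

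**Figure D1:**
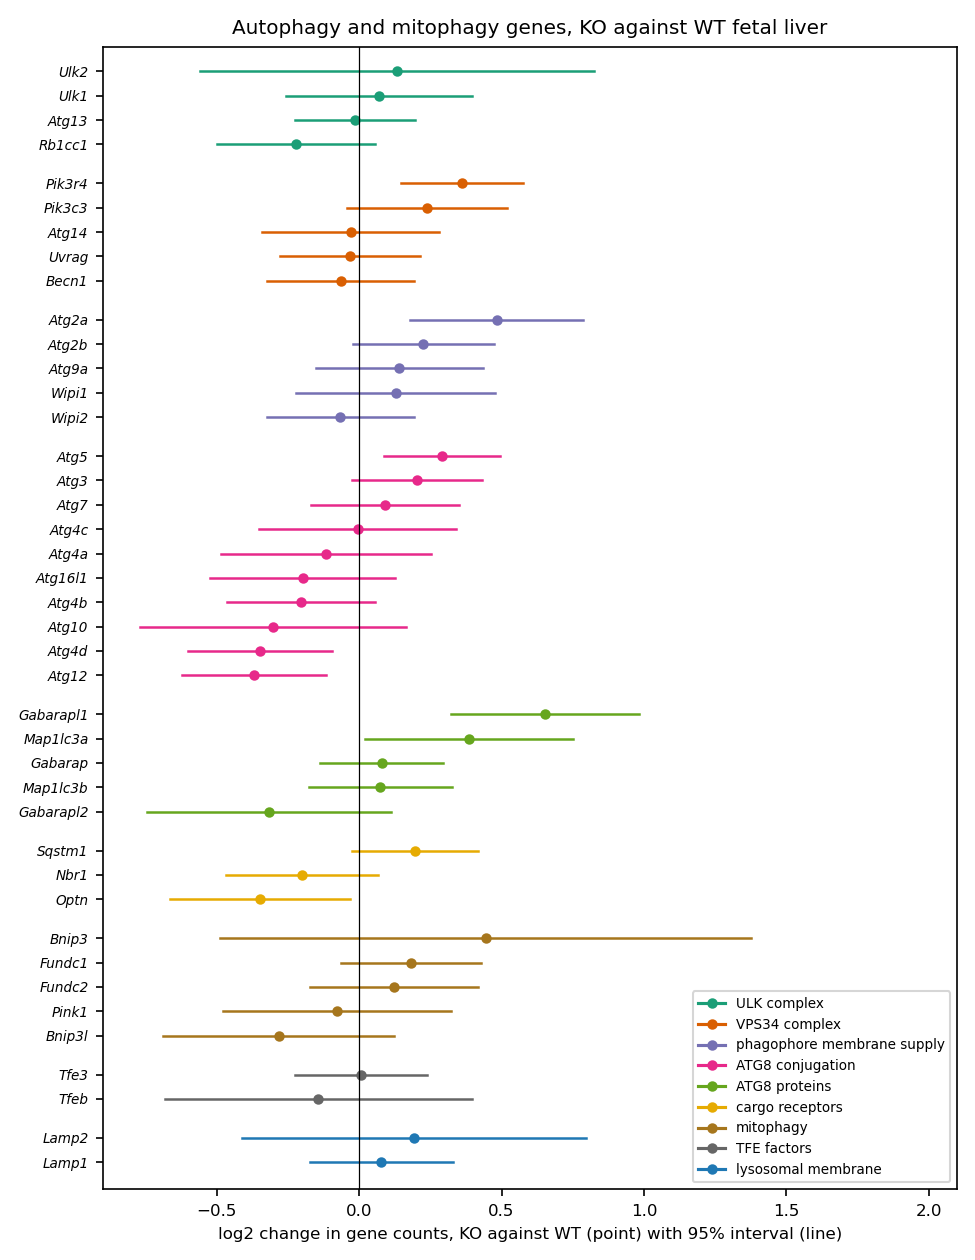
Log2 change in gene counts, KO against WT, for the 41 members (points) with 95% intervals (lines), grouped by role and ordered by change within each role. Gabarapl1 has the highest value (0.65) and Atg12 the lowest (-0.37), and the interval of Bnip3 is the widest (-0.49 to 1.38).

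The ULK complex, the kinase that starts autophagy, was represented by Ulk1, Ulk2, Atg13 and Rb1cc1. Ulk1 stood at 209, 157 and 182 CPM in WT replicates 1 to 3 and at 171, 217 and 187 CPM in KO replicates 4 to 6. The groups overlapped, and the change was 0.07 (95% interval -0.26 to 0.40, adjusted p = 0.93). Ulk2, the other ULK kinase and a carrier of a miR-451a match, had 12.9, 24.5 and 12.96 CPM in WT and 15.1, 18.4 and 21.7 CPM in KO. Its change was 0.13 (interval -0.56 to 0.82). Its highest values in each group were in WT replicate 2 and KO replicate 6, the libraries with the most hepatocyte marker RNA. The change of Ulk2 was 0.10 with hepatocyte marker level in the fit and 0.40 without both libraries, and it was called in neither. The part of hepatocytes in its level was not tested. Atg13, which links the kinase to the membrane, had a change of -0.02 and the scaffold Rb1cc1 (FIP200) one of -0.22 (interval -0.50 to 0.05).

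Among the VPS34 lipid kinase genes, the values of the catalytic and the regulatory subunit were higher in every KO library, without passing the test. Pik3r4, the regulatory subunit VPS15, had 31.1, 29.8 and 34.1 CPM in WT and 43.0, 39.7 and 39.3 CPM in KO. The groups did not overlap, and the means were 31.7 ± 2.20 and 40.6 ± 2.02 CPM (SD, n = 3 each). The change of Pik3r4 was 0.36 (SE 0.09, interval 0.15 to 0.58), with an unadjusted p of 0.00575 and an adjusted p of 0.0973 from edgeR. Pik3c3, the lipid kinase itself, had 39.8, 32.6 and 43.5 CPM in WT and 45.1, 46.2 and 45.4 CPM in KO. Its change was 0.24 (interval -0.04 to 0.52, adjusted p = 0.385). Becn1, the shared adaptor, Atg14, which directs the complex to autophagosome formation, and Uvrag, its counterpart on endosomes, had changes of -0.07, -0.03 and -0.03, and their groups overlapped.

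Of the genes that supply membrane to the growing phagophore, Atg2a had the largest difference. ATG2 proteins move lipid between membranes. Atg2a stood at 57.3, 44.7 and 56.7 CPM in WT and at 80.5, 75.1 and 66.2 CPM in KO, and the groups did not overlap. Its means were 52.9 ± 7.09 and 73.9 ± 7.20 CPM, a change of 0.48 (SE 0.13, interval 0.18 to 0.79), with an unadjusted p of 0.00747 and an adjusted p of 0.114 from edgeR. Its paralog Atg2b, which at 14.6 CPM per kb of transcript in WT was the more abundant per length (Atg2a 8.30), had a change of 0.23 (interval -0.02 to 0.47), also with every KO library above every WT library. Atg9a, the lipid scramblase of the vesicles that seed the phagophore, had a change of 0.14. The lipid-binding proteins Wipi1 and Wipi2 had changes of 0.13 and -0.07.

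The 10 genes of the ATG8 conjugation chains went in both directions, with 3 changes above 0 and 7 below, and a median of -0.16. Atg5 and Atg12, whose proteins are joined to each other in a conjugate, lay on opposite sides of 0. Atg5 had 26.0, 27.3 and 26.9 CPM in WT and 33.3, 34.0 and 30.6 CPM in KO, a change of 0.29 (SE 0.08, interval 0.09 to 0.49) with an unadjusted p of 0.0125 and an adjusted p of 0.147 from edgeR. Atg12 had 56.6, 47.7 and 47.9 CPM in WT and 36.1, 42.3 and 39.6 CPM in KO, a change of -0.37 (SE 0.11, interval -0.62 to -0.12) with an unadjusted p of 0.0113 and an adjusted p of 0.14 from edgeR. Neither gene's groups overlapped. The 95% intervals of the Atg5 and Atg12 changes share no value, but neither gene was called and the difference between their changes was not tested. In CPM per kb of the longest coding transcript, Atg12 stood at 10.7 ± 1.07 in WT and 8.25 ± 0.65 in KO, and Atg5 at 11.4 ± 0.28 and 13.9 ± 0.76. How close both genes are in WT depends on the length used. Over all annotated exon bases, Atg12 had 6.58 and Atg5 11.4 CPM per kb in WT.

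The ATG4 proteases trim ATG8 proteins before conjugation and release them afterwards. Atg4d had 159, 126 and 134 CPM in WT and 107, 116 and 105 CPM in KO, and the groups did not overlap. The change of Atg4d was -0.35 (SE 0.10, interval -0.60 to -0.10), with an unadjusted p of 0.0141 and an adjusted p of 0.157 from edgeR. It shares exon positions with Kri1 on the opposite strand (1369 to 2371 counts per library, beside 3216 to 5296 for Atg4d). The strand setting of the counting is not given in the sources. Atg4a, Atg4b and Atg4c had changes of -0.12, -0.20 and -0.01, and their groups overlapped. Atg3, the E2-like enzyme of ATG8 conjugation and a carrier of a miR-144-5p match, had 32.3, 29.7 and 29.4 CPM in WT and 38.0, 34.6 and 32.5 CPM in KO, a change of 0.20 (interval -0.03 to 0.43) between groups that did not overlap. The E1-like Atg7, the E2-like Atg10 and the scaffold Atg16l1 had changes of 0.09, -0.30 and -0.20, and the groups of all 3 overlapped.

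**Figure D2:**
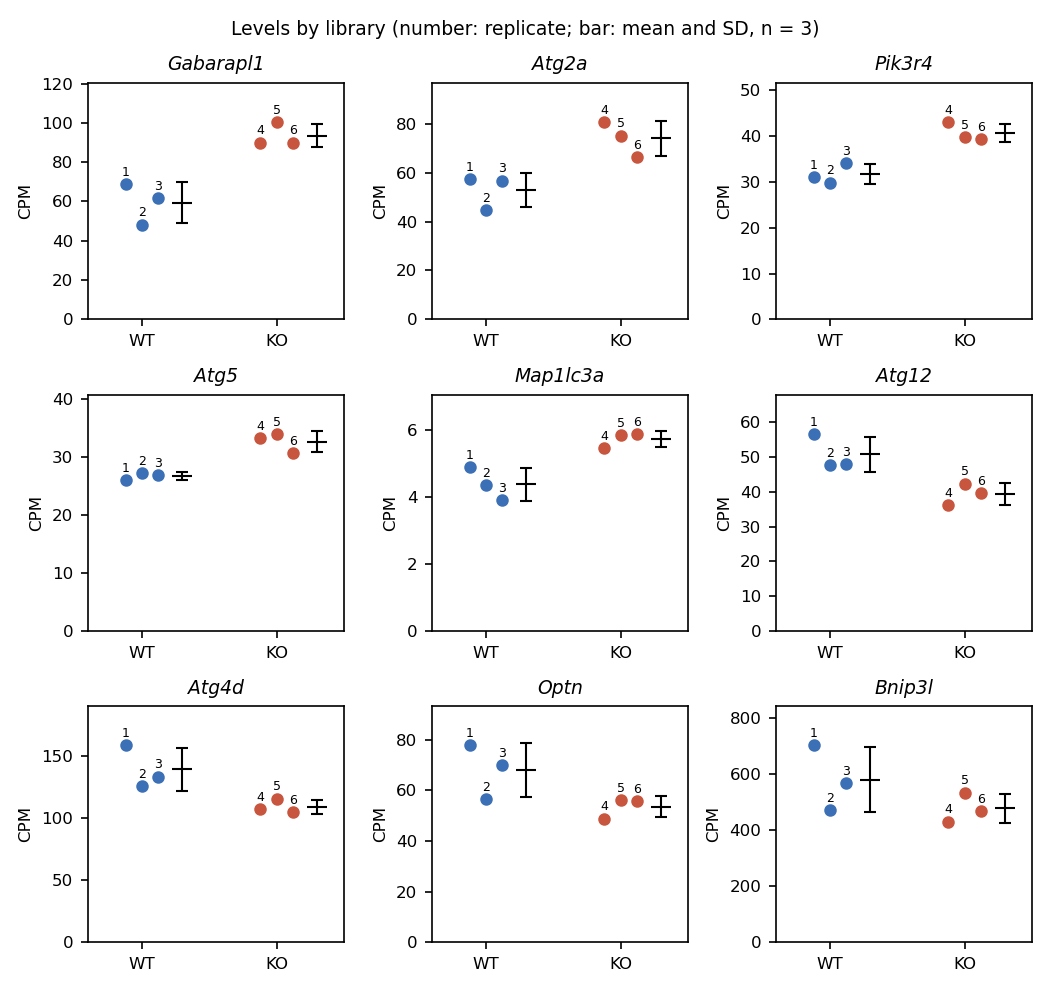
CPM by library for 9 members (points, numbered by replicate) with the mean and SD of each group at its right (bars, n = 3 libraries), on linear axes from 0. In 8 of the 9 panels the groups do not overlap, and in that of Bnip3l they do (473 to 704 CPM in WT, 431 to 535 CPM in KO).

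Gabarapl1, the member with an 8mer match to miR-451a, had the largest change of the 41. It encodes an ATG8 protein that is attached to the autophagosome membrane. Gabarapl1 stood at 68.7, 48.1 and 61.5 CPM in WT and at 90.0, 100.2 and 90.0 CPM in KO, means of 59.4 ± 10.4 and 93.4 ± 5.92 CPM. All 3 KO libraries were above all 3 WT libraries. The change was 0.65 (SE 0.14, interval 0.32 to 0.98), with an unadjusted p of 0.00257 and an adjusted p of 0.0628 from edgeR. Gabarapl1 was called with DESeq2 (adjusted p = 4.3e-04), with a filter of at least 100 counts in at least 3 libraries (0.0384, the one member then called, beside 3.34% of all tested genes called higher and 2.78% lower), and without WT replicate 2 (0.0201). Without any of the other 5 libraries its adjusted p lay between 0.0934 and 0.198. The match lies at base 614 of the 1179-base UTR of the longest form and was found in the UTR of 1 of its 3 annotated coding transcripts. Gene counts do not tell those transcripts apart. An antisense gene, 1700101I11Rik, shares exon positions with it but had 11 to 29 counts, beside 1482 to 4225 for Gabarapl1.

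The other ATG8 family members had changes between -0.32 and 0.38. Map1lc3a (LC3A) had 4.88, 4.36 and 3.90 CPM in WT and 5.45, 5.84 and 5.89 CPM in KO, a change of 0.38 (interval 0.02 to 0.75, unadjusted p = 0.0419, adjusted p = 0.276 by edgeR). Map1lc3b (LC3B), the usual marker of autophagosomes, had 143, 122 and 119 CPM in WT and 123, 144 and 138 CPM in KO. Its change was 0.07 (interval -0.18 to 0.32), and its groups overlapped. Gabarap had a change of 0.08 (interval -0.14 to 0.30). Gabarapl2 (GATE-16) had 175, 116 and 136 CPM in WT and 101, 135 and 107 CPM in KO, a change of -0.32 (interval -0.74 to 0.11), between groups that overlapped. These genes are close relatives, and the treatment of reads that match more than 1 of them is not given in the sources.

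Per kb of the longest coding transcript, the order within the family in WT was Gabarap (134 ± 12.2 CPM per kb), Gabarapl2 (84.8 ± 17.7), Map1lc3b (48.7 ± 5.06), Gabarapl1 (32.7 ± 5.72) and Map1lc3a (3.94 ± 0.44), and no neighbours in that order overlapped. In KO, Gabarapl1 (51.3 ± 3.25 CPM per kb) and Map1lc3b (51.2 ± 4.17) could not be separated, and the places of the others were the same. The places of those 2 depend on the length used. Over all annotated exon bases, Map1lc3b had 17.0 and Gabarapl1 29.5 CPM per kb in WT.

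**Figure D3:**
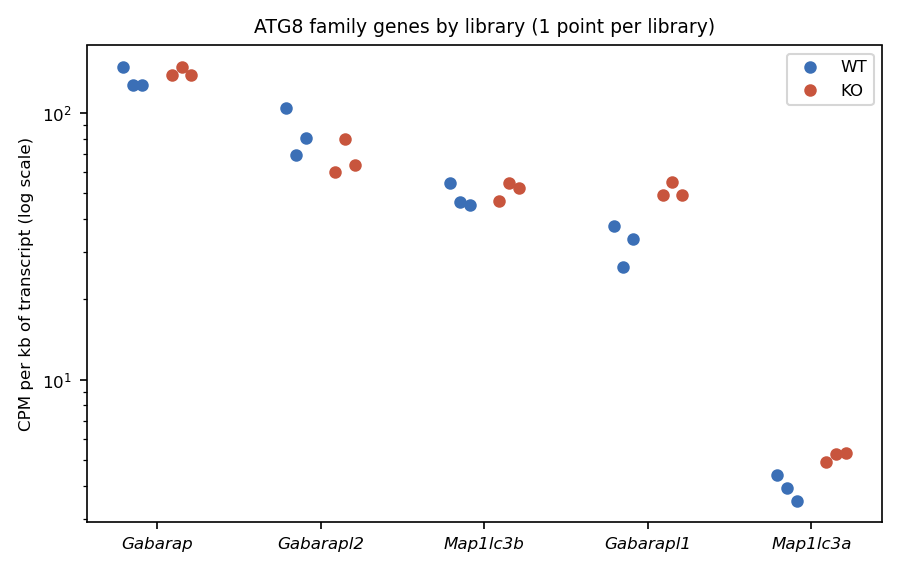
CPM per kb of the longest coding transcript (log axis) of the 5 ATG8 family genes, with 1 point per library, WT on the left and KO on the right of each gene. The KO points of Gabarapl1 (49.4 to 55.1) overlap those of Map1lc3b (46.6 to 54.8), and Map1lc3a lies far below the other 4 genes.

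Of the 3 cargo receptors, which tie ubiquitin-marked cargo to ATG8 proteins, Optn (optineurin) had the lowest change. Optn stood at 77.8, 56.6 and 70.1 CPM in WT and at 48.8, 56.1 and 55.7 CPM in KO, a change of -0.35 (SE 0.13, interval -0.66 to -0.03, unadjusted p = 0.0352, adjusted p = 0.253 by edgeR). The gap between the groups was small, 56.6 CPM in the lowest WT library beside 56.1 in the highest KO library. Sqstm1 (p62) had 170.0, 149 and 148 CPM in WT and 165, 183 and 187 CPM in KO, a change of 0.20 (interval -0.03 to 0.42, adjusted p = 0.359) between groups that overlapped. Nbr1 had a change of -0.20 (interval -0.47 to 0.07).

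By group means, Bnip3l was the most abundant member per kb of transcript in WT and in KO, at 179 ± 35.6 CPM per kb in WT and 147 ± 16.1 in KO. In both groups its libraries overlapped those of Gabarap per kb, and in KO those of Lamp1 too. Bnip3l had 704, 473 and 569 CPM in WT and 431, 535 and 469.8 CPM in KO. The groups overlapped, and the change was -0.28 (SE 0.17, interval -0.69 to 0.12, adjusted p = 0.499). Erythroid marker genes, whose mean level was lower in every KO library, had a median change of -0.50 over the 14 markers, and their part in the Bnip3l value was not tested. Its paralog Bnip3, also a receptor on the mitochondrial surface, had 41.1, 77.9 and 35.7 CPM in WT and 47.6, 60.0 and 103 CPM in KO. In gene counts, Bnip3 was highest in each group in WT replicate 2 and KO replicate 6, the libraries with the most hepatocyte marker RNA. Its change was 0.44 (SE 0.39, interval -0.49 to 1.38). It became 0.03 without KO replicate 6 and 0.87 without WT replicate 2, and 0.35 (adjusted p = 0.0299 by edgeR) when the fit included each library's hepatocyte marker level.

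The other mitophagy genes showed smaller differences. Fundc1, a mitophagy receptor, had 15.9, 17.4 and 15.5 CPM in WT and 17.8, 18.5 and 19.1 CPM in KO, a change of 0.18 (interval -0.06 to 0.43) between groups that did not overlap. Its relative Fundc2 had a change of 0.12 and the kinase Pink1, which marks damaged mitochondria, one of -0.08. The lysosome membrane proteins Lamp1 and Lamp2 had changes of 0.08 and 0.19. Lamp2 had 95.3, 142 and 80.5 CPM in WT and 94.97, 118 and 150.5 CPM in KO, again highest in WT replicate 2 and KO replicate 6.

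Tfeb and Tfe3 encode transcription factors that switch on lysosomal and autophagy genes. Tfeb had 5.57, 8.24 and 4.82 CPM in WT and 5.47, 5.53 and 5.89 CPM in KO, a change of -0.14 (interval -0.68 to 0.39). Tfe3 had a change of 0.01 (interval -0.22 to 0.24). Both groups overlapped for each factor, and WT replicate 2 alone was above all other libraries for Tfeb.

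The E-box CACGTG, the core of the word these factors bind, was searched in RefSeq promoter windows (GRCm38.p6, 250 bases before to 50 after the start). Both strands read the same, since the word is its own reverse complement. It was found in 6 of 40 windows (15%) of the 34 members with a window, beside 7.15% of all 32851 windows. The 6 members were Atg14, Atg3, Atg5, Atg7, Bnip3 and Lamp1, the last with 4 copies, and the longer TCACGTGA, which contains the E-box, was found in Atg3 only (2.5%, beside 0.974% of all windows). The GATA words AGATAA or TGATAA, read on both strands, were found in 4 members (10%, beside 18.6%), and the forkhead word GTAAACA in 0 (beside 3.65%). The changes of the 6 E-box members ran from -0.03 (Atg14) to 0.44 (Bnip3), and none was called. Shown are the Atg3 window with the longer word and the Atg5 window, with the E-box in capitals and 10 bases on each side, at chr16:45158748-45158773 and chr10:44268315-44268340.
Atg3: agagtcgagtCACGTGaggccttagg
Atg5: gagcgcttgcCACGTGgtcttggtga

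The authors also deposited counts in introns, which stand for unspliced RNA, and 40 of the 41 members could be tested there (Map1lc3a had too few intron counts). Of these 0 were called, where 0.237% of 11803 tested genes were called higher and 0.483% lower. Before adjustment, 6 members had a p under 0.05 and were higher (15%, beside 5.39% of all tested genes) and 0 lower (beside 5.45%). These counts moved with single libraries: 0 members were higher without KO replicate 5, 3 without WT replicate 1, and 3 (with 2 lower) without WT replicate 3. Whether the share of all tested genes at that p moved as well was not counted. With all libraries, 28 members had an intron change above 0 (70.0%, beside 53.0% of all tested genes), with a median of 0.19 against 0.02 for all tested genes.

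In 5 members every KO library was above every WT library in introns (beside 9.92% of all tested genes) and in 0 every KO library was below (beside 7.57%). The 6 members with an unadjusted p under 0.05 were Atg2a, Pik3r4, Pik3c3, Wipi1, Bnip3 and Fundc2. Atg2a had intron levels of 32.5, 28.8 and 21.4 CPM in WT and 47.2, 54.4 and 35.2 CPM in KO, an intron change of 0.72 (SE 0.23, unadjusted p = 0.0134, adjusted p = 0.284 by edgeR). Pik3r4 had 37.0, 36.4 and 27.5 intron CPM in WT and 50.4, 57.3 and 40.9 in KO, an intron change of 0.56 (adjusted p = 0.345). Both genes were thus higher in every KO library in exons and in introns.

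Pik3c3 had 55.7, 69.0 and 46.9 intron CPM in WT and 70.9, 94.4 and 74.4 in KO, an intron change of 0.48 (adjusted p = 0.41). Wipi1 had 206, 276 and 192 intron CPM in WT and 297, 382 and 281 in KO, an intron change of 0.51 (adjusted p = 0.367). Fundc2 had 21.7, 22.5 and 16.7 intron CPM in WT and 26.9, 29.7 and 31.2 in KO, an intron change of 0.53 (adjusted p = 0.356). In these 3 genes every KO library was above every WT library in introns, while the gene counts of Wipi1 and Fundc2 overlapped between the groups. Bnip3 had 32.6, 48.1 and 54.6 intron CPM in WT and 53.7, 80.0 and 78.8 in KO, an intron change of 0.65 (adjusted p = 0.372) with groups that overlapped. Within WT, introns of Bnip3, Ulk2 (17.6 CPM) and Lamp2 (68.9 CPM) were highest in replicate 3, but their gene counts in replicate 2. The mismatch was not confined to these genes. Bnip3l, Pik3c3 and Gabarapl2 were lowest of WT in replicate 2 in gene counts, but highest there in introns (Bnip3l 127, 155 and 78.1 intron CPM). Sqstm1 was lowest in WT replicate 3 in both. The cause of that mismatch was not tested. The exon against intron fit below pairs both kinds of count by replicate number. Its results, also those with a library left out, rest on that pairing.

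The change in exons was set against that in introns in 1 edgeR fit over both kinds of count. No gene of the 11100 tested was called (smallest adjusted p 0.223), and an unadjusted p under 0.05 was reached by 1.67% of all tested genes upwards and 1.5% downwards. The difference was above 0 for 10 members and below 0 for 30, with a median of -0.13, beside a median of -0.06 and 39.8% above 0 for all tested genes. In this fit Atg12 was the only member with an unadjusted p under 0.05. Lower members at that p numbered 10 without WT replicate 2, 7 without WT replicate 2 and KO replicate 6, 3 without WT replicate 3, and 0 without KO replicate 4 or KO replicate 5. The share of all tested genes at that p was not counted in those fits, so the member counts have no baseline. The intron levels of Atg12 were 24.0, 22.6 and 15.2 CPM in WT and 22.7, 25.6 and 22.1 CPM in KO. The intron change of Atg12 was 0.19 and its exon change relative to that was -0.58 (SE 0.21, unadjusted p = 0.0256 by edgeR). Gabarapl1, with an intron change of 0.29 (interval -0.20 to 0.78), had the highest difference of the members, 0.34 (interval -0.33 to 1.02). Bnip3l had an intron change of 0.24 and a difference of -0.55 (interval -1.33 to 0.23).

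**Figure D4:**
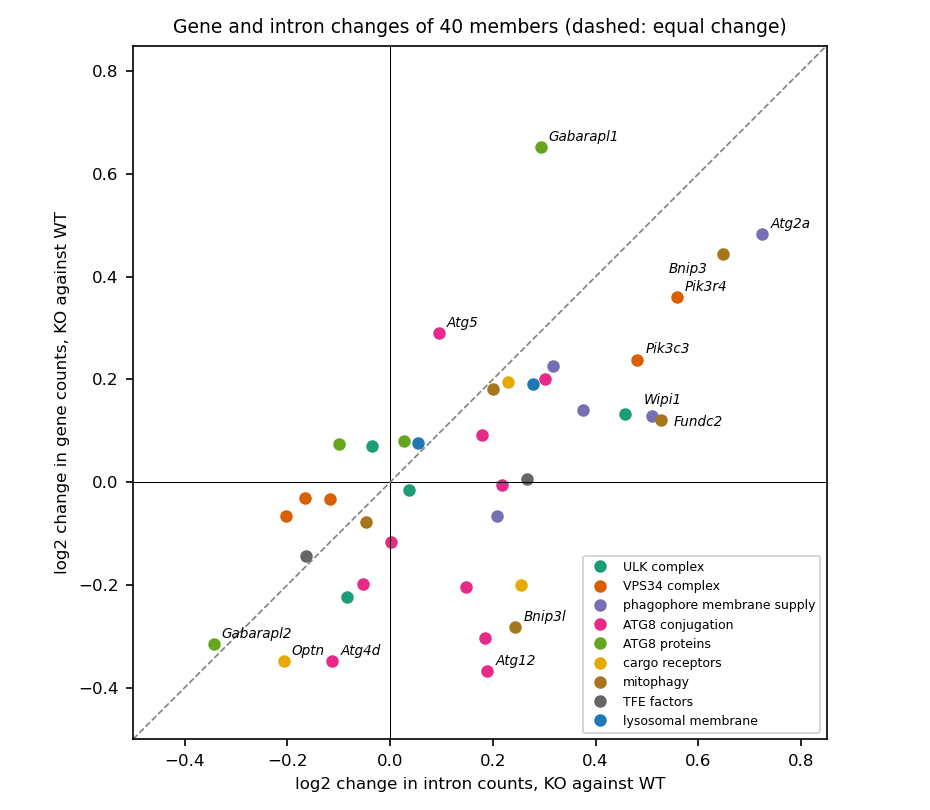
Log2 change in gene counts (vertical) against log2 change in intron counts (horizontal), KO against WT, for the 40 members tested in introns, with 1 point per gene and a dashed line where both are equal. Gabarapl1 lies above the line (0.65 against 0.29), and Atg12 (-0.37 against 0.19) and Bnip3l (-0.28 against 0.24) lie below it.

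By microRNA, both members with a miR-451a match had changes above 0 (Gabarapl1 0.65, Ulk2 0.13). Of the 5 members with a miR-144-3p match, 1 had a change above 0, Sqstm1 (0.20). The others were Becn1, Uvrag, Wipi2 and Atg4a (-0.07, -0.03, -0.07 and -0.12). The median was -0.07 over the 5, beside 0.08 over the 36 members without one. For miR-144-5p, Atg3 and Atg5 had changes of 0.20 and 0.29 and Gabarapl2, with an 8mer, one of -0.32. A match is a description of the sequence only, and none of these members was called.

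The remaining genes of the pathway were read from the same fit. Of 33 other autophagy genes 32 were tested, 0 rose and 2 fell (beside 1.83% and 1.45% of all tested genes). Sh3glb1 (BIF-1), a membrane-bending protein that binds the UVRAG and Beclin 1 complex, had 257, 198 and 217 CPM in WT and 126, 136 and 127 CPM in KO, and fell by 0.79 (SE 0.11, adjusted p = 0.0234 by edgeR). Vamp8, a fusion protein that joins autophagosomes to lysosomes, had 218, 164 and 195 CPM in WT and 125, 124 and 117 CPM in KO, and fell by 0.66 (SE 0.11, adjusted p = 0.0374 by edgeR). Both calls were kept without WT replicate 2 and lost without any 1 of the other 5 libraries, with adjusted p of 0.0528 to 0.0983 for Sh3glb1 and 0.0683 to 0.16 for Vamp8. Each was lower in all 3 KO libraries, as was the mean level of the 14 erythroid markers. Singly, 8 of the 14 markers were lower in every KO library (57.1%, beside 10.9% of all tested genes). The part of erythroid cells in the Sh3glb1 and Vamp8 values was not tested.

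Of 32 lysosomal genes, 1 rose and 0 fell (beside 1.83% and 1.45% of all tested genes). Atp6v1a, the catalytic subunit of the proton pump that acidifies lysosomes, had 87.6, 91.1 and 86.6 CPM in WT and 133, 138 and 136 CPM in KO, and rose by 0.62 (SE 0.06, adjusted p = 0.0123 by edgeR). Its introns had a change of 0.01, and its exon change relative to introns was 0.60 (SE 0.16, unadjusted p = 0.00532, not called). Its UTR holds an 8mer match to miR-144-3p at chr16:44087139-44087162 on the minus strand, shown with the match in capitals. The Atp6v1a call was kept without WT replicate 2 and lost without any 1 of the other libraries (adjusted p of 0.0516 to 0.0834).
Atp6v1a, miR-144-3p 8mer: catgatccATACTGTAaacttgta

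Of 15 regulators of autophagy genes, 2 rose and 0 fell (beside 1.83% and 1.45% of all tested genes). Ywhaz (14-3-3 zeta), which holds FOXO3 in the cytoplasm, had 193, 192 and 195 CPM in WT and 355, 351 and 331 CPM in KO, and rose by 0.84 (SE 0.07, adjusted p = 0.0083 by edgeR). Cab39 (MO25), a partner of the kinase LKB1 upstream of AMPK, had 144, 122 and 128 CPM in WT and 176, 189.8 and 174 CPM in KO, and rose by 0.46 (SE 0.09, adjusted p = 0.0481 by edgeR). Both hold a 7mer-m8 match to miR-451a. The Cab39 call was lost with limma-voom (0.0557), with no filter (0.0526), with the exon table and without any 1 library but WT replicate 2 (0.0683 to 0.207), and that of Ywhaz without WT replicate 1, WT replicate 3, KO replicate 4 or KO replicate 5 (0.0555 to 0.0675). Foxo3 itself had 556, 433 and 506 CPM in WT and 460.3, 514 and 462 CPM in KO, a change of -0.06 (interval -0.35 to 0.23, adjusted p = 0.94). Gata1 had a change of -0.16 (interval -0.47 to 0.14, adjusted p = 0.645).

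The count of members called moved with the settings, while the changes of Gabarapl1, Atg2a, Pik3r4, Atg5, Atg12, Atg4d and Optn kept their sign in all of them. Called members numbered 3 higher and 1 lower without WT replicate 2 and KO replicate 6 together (beside 3.85% and 5.56% of all tested genes). They numbered 7 higher and 2 lower when hepatocyte marker level entered the fit (beside 8.55% and 8.64%). Without WT replicate 2 alone, 1 was called higher and 2 lower (beside 3.16% and 6.61%), and 0 were called without any 1 of the other libraries, where 0.0326% to 0.355% of all tested genes were called higher and 0.0456% to 0.289% lower.

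**Figure D5:**
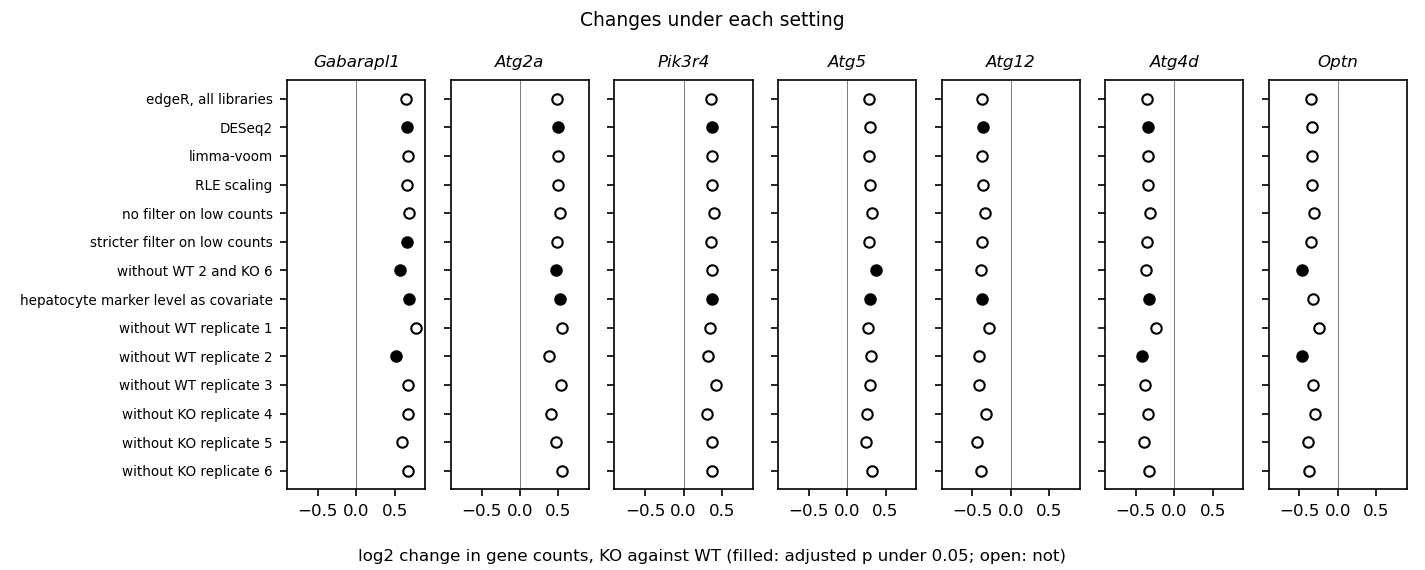
Log2 change in gene counts, KO against WT, of 7 members (panels) under the edgeR fit of all libraries and 13 alternatives (the exon table is not drawn), with filled points where the adjusted p is under 0.05. Gabarapl1 ranges from 0.52 to 0.77 and is called in 5 of those drawn, and no panel has points on both sides of 0.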

How the data were processed

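The authors deposited raw counts per gene symbol for 34542 genes, and exon and intron counts for 15543 of them. Alignment with STAR, counting with HTSeq (both without a version) and the builds NCBIM37 and mm10 are named per the submitters' processing notes. Strand setting and intron definition are not given in the sources. The gene table's name carries the build NCBIM37 and marks hemoglobin and mitochondrial genes as removed by the authors, so library sizes exclude them. Exon counts equal gene counts for all 15543 shared genes. Coordinates printed are GRCm38, from the annotation by symbol, and are not those of the tables. Two-sided tests used edgeR 4.0.16 in R 4.3.3 (filterByExpr with a minimum count of 10 and a minimum total of 15, TMM scaling), with Benjamini-Hochberg adjustment over all tested genes. SE and 95% intervals were derived from the test statistic. In the exon against intron fit each sample had its own term, and both kinds of column had their own TMM scaling, so the difference is relative to all genes. Alternatives were DESeq2 1.42.0, limma-voom (limma 3.58.1), other scaling and filters, the exon table, a hepatocyte marker covariate (mean of log2 CPM plus 1 over 20 markers), and left-out libraries. Methods were tested on simulated data. Groups came from the sample labels. Replicate pairs of a group differed beyond sampling noise (chi-square per degree of freedom of 16.7 to 157), so each library counted once.

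The members and the other gene lists were chosen with earlier results of these data known. Members named with a value in every library were those with an unadjusted p under 0.05 in gene counts, introns or the exon against intron fit, and Bnip3l, Bnip3, Ulk1, Map1lc3b, Gabarapl2, Sqstm1 and Tfeb. Of the other lists, up to 4 called genes were named, with Foxo3, Gata1 and Ywhaz. Per-library values of Ulk2, Atg3, Fundc1 and Lamp2 were added after their values were seen. Reads have no molecular identifiers.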

Additional observations from a re-analysis of the deposited data

How the results depend on the processing

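Counts of called genes moved most with the settings. Members called numbered 3 higher and 2 lower with DESeq2, 1 higher with the stricter filter, 3 and 1 without WT replicate 2 and KO replicate 6, and 7 and 2 with the hepatocyte covariate, against 0 and 0. With 1 library left out they ran from 0 to 1 higher and from 0 to 2 lower. Other autophagy genes, with 0 higher and 2 lower, gave 3 higher with DESeq2, 1 with the stricter filter, 1 higher and 4 lower without both libraries, 6 and 5 with the covariate, and 0 to 2 higher and 0 to 5 lower with 1 library left out. Lysosomal genes, with 1 higher, gave 3 with DESeq2, 2 with the stricter filter, 2 without both libraries, 4 with the covariate and 0 to 1 with 1 library left out. Regulators, with 2 higher and 0 lower, gave 4 and 1 with DESeq2, 1 higher with limma-voom, no filter or the exon table, 3 and 1 with the stricter filter, 4 and 1 without both libraries, 5 and 1 with the covariate, and 0 to 3 higher and 0 to 1 lower with 1 library left out. Shares of all tested genes called moved too, from 1.83% higher and 1.45% lower. They were 4.39% and 4.27% with DESeq2, 3.34% and 2.78% with the stricter filter, and 3.85% and 5.56% without both libraries. With the covariate they were 8.55% and 8.64%, and with 1 library left out 0.0326% to 3.16% and 0.0456% to 6.61%. The causes were not tested. Member calls in introns and in the exon against intron fit were 0 under every alternative run. The members' median, 0.07, ran from -0.016 to 0.086 with 1 library left out.

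Leaving the exon table aside, 27 of 41 members kept their sign in all alternatives that tested them (13, or 12 for Atg10) and 14 did not. With exon counts, Tfe3 alone turned, at -6.9e-04. With no filter on low counts the changes of Atg13, Atg14, Atg4c and Uvrag became 0.023, 0.0079, 0.033 and 0.0064. Without WT replicate 2 and KO replicate 6, those of Tfeb and Uvrag became 0.11 and 0.036. With 1 library left out, the sign turned within these ranges: Ulk1 -0.035 to 0.18, Ulk2 -0.027 to 0.51, Atg13 -0.068 to 0.030, Becn1 -0.16 to 0.0073, Uvrag -0.098 to 0.029, Atg14 -0.14 to 0.057, Wipi1 -0.0075 to 0.26, Wipi2 -0.16 to 0.0028, Atg4a -0.23 to 0.036, Atg4c -0.11 to 0.060, Pink1 -0.18 to 0.057, Tfeb -0.29 to 0.12, Tfe3 -0.043 to 0.068, Lamp2 -0.016 to 0.46 and, outside the members, Foxo3 -0.15 to 0.030. No paired analysis was possible because WT and KO libraries share no replicate number. At these depths Atg10 had the lowest count of any member in a library, 68, while the change of Bnip3 had the widest interval.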
